A study of Mus musculus with 12 samples.

Results

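Genes of the liver X receptor (LXR) and of cholesterol efflux were examined in mouse embryonic fibroblasts whose methyl metabolism had been disturbed in 3 ways. The genes were taken by symbol through their Ensembl identifiers, from 8 names: the receptors Nr1h2 and Nr1h3, the transporters Abca1 and Abcg1, Apoe, Mylip, Soat1, and Scarb1. Of these, 6 were analyzed among 12591 genes in all, and Nr1h3 and Abcg1 were not analyzed here. The cells were fibroblasts prepared from embryos of heterozygous PER2::LUC knock-in mice (strain label C57 PER2::LUC), which carry luciferase joined to the clock protein PER2, and they were treated at confluence for 24 h. There were 3 replicate dishes of each of 4 groups: control (CTL), 10 μM deazaneplanocin A (DZ, an inhibitor of the enzyme AHCY, which clears S-adenosylhomocysteine), 1 mM adenine, and 1 mM S-adenosylmethionine (SAM, the methyl donor). All groups, CTL included, were in 3.3 mM HCl. The labels give 1 kind of cell for all 12 libraries and no separate animals for the dishes, so the p-values measure the spread between dishes, not between animals.

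LXR alpha (Nr1h3) and LXR beta (Nr1h2) are nuclear receptors that bind oxidized cholesterol derivatives and sit on DNA as heterodimers with the retinoid X receptor. When sterols are plentiful, they turn on genes that export cholesterol, such as Abca1 and Abcg1, genes that carry it away, such as Apoe, and Mylip, which limits the uptake of lipoproteins. They also turn on Srebf1 and genes of fatty acid synthesis, whereas the related factor SREBP-2 (Srebf2) turns on cholesterol synthesis and uptake when sterols are scarce.

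Levels were given in the deposited table as log2 CPM (CPM: a gene's reads scaled to a common library size), and 1 unit is a doubling. The depth was between 45649534 and 56789090 reads per library. SAM replicate 3 stood apart from its group, as its chi-square statistic divided by the degrees of freedom was 15.7 and 19.1 against the other SAM libraries and between 4.76 and 7.07 for every other pair of replicates. The authors' scaling factors were lowest in CTL and highest in SAM, and with plain read totals the log2 fold changes under SAM had a median of 0.11 over all genes, against -0.015 with the authors' scaling. The 12 libraries fitted the label of fibroblasts, as 10 of 12 fibroblast markers were analyzed. Their summed level was between 17319 CPM (lowest SAM library) and 29529 CPM (highest DZ library). Most single markers did not follow this sum under SAM. There 8 of the 10 were higher than CTL and 1 was lower, at an adjusted p below 0.01 in limma. The median log2 fold change of the 10 markers was 0.41. The lower marker was Fn1 (-1.58), which had the highest level of the 10 in CTL. None of 6 endothelial or 6 epithelial markers was among the analyzed genes. Of 14 macrophage markers only Cd68 was, at 2.99 to 3.96 CPM in CTL, 2.70 to 3.75 under DZ, 10.8 to 12.3 under adenine, and 15.5 to 17.6 under SAM. Of 7 adipocyte markers, Fabp4 and Pparg were analyzed, with a summed level between 7.64 and 14.8 CPM. The part of other cell types in the results was not tested, and in bulk RNA fewer cells of a type and less RNA per cell cannot be told apart.

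The efflux transporter Abca1, its lipid acceptor Apoe, and the receptor Nr1h2 were lower than in CTL under all 3 treatments. The other genes differed among the treatments: Mylip fell under DZ, Soat1 fell under adenine and SAM, and Scarb1 rose under DZ and SAM. A gene was called when its Benjamini-Hochberg adjusted p over all genes in the limma model was below 0.01. Under DZ 5 of the 6 genes were called, 1 higher and 4 lower, where 45.9% of all genes were called (22.6% higher and 23.4% lower). Under adenine 4 were called, all lower, against 61.6% of all genes (30.6% higher and 31.0% lower). Under SAM 5 were called, 1 higher and 4 lower, against 69.3% of all genes (33.7% higher and 35.7% lower). The median log2 fold change of the 6 genes was -0.25, -0.43, and -0.41 under DZ, adenine, and SAM, where the medians of all genes were -0.0057, -0.0030, and -0.015. The 3 comparisons share the CTL dishes and are therefore not independent.

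**Figure D1:**
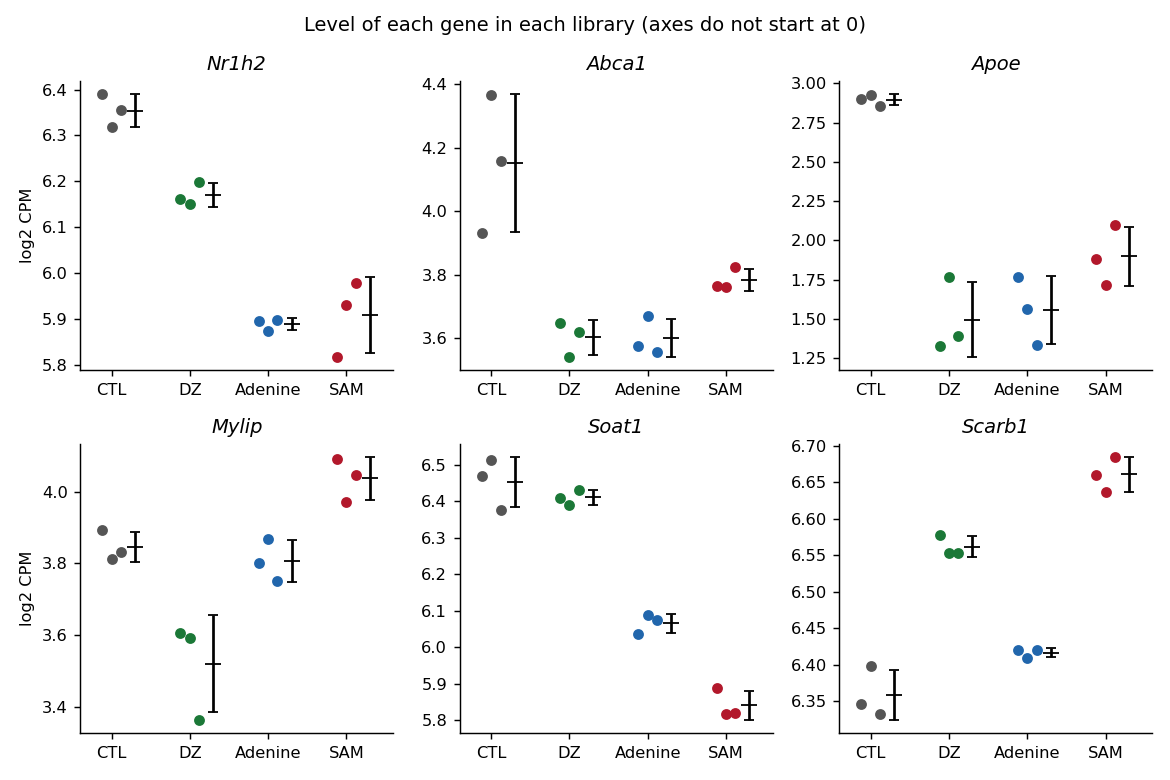
Level of the 6 genes in each of the 12 libraries (log2 CPM; the vertical axes do not start at 0), with the mean and SD of 3 dishes beside the points. The CTL dishes lie above all treated dishes in the panels of Nr1h2, Abca1, and Apoe.

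Per kilobase of the longest annotated transcript, Nr1h2 had the highest level in CTL, at 36.5 ± 0.90 CPM per kb (SD, n = 3). Scarb1 followed at 26.1 ± 0.63 and Soat1 at 10.3 ± 0.49 CPM per kb. Mylip had 4.56 ± 0.14, Apoe 2.40 ± 0.060 (over a transcript of 3088 bases), and Abca1 1.74 ± 0.26 CPM per kb. This order holds per length only, and it depends on the transcript taken, as a shorter one would give a higher level. In reads per library Apoe was lowest (122 to 362), Mylip (485 to 1012) and Abca1 (573 to 983) overlapped, and Mylip was below Abca1 in each CTL library.

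The receptor came first. Nr1h2 (ENSMUSG00000060601, GRCm39 chr7:44199036-44203406, minus strand), which encodes LXR beta, was at 6.39, 6.32, and 6.36 log2 CPM in the CTL dishes, at 6.16, 6.15, and 6.20 under DZ, at 5.90, 5.87, and 5.90 under adenine, and at 5.82, 5.93, and 5.98 under SAM. Every treated dish was below every CTL dish, and the DZ dishes lay between CTL and the other treatments without overlap. The log2 fold change was -0.18 under DZ (standard error 0.040, adjusted p = 0.00101 in limma with Benjamini-Hochberg adjustment). Adenine gave -0.47 (adjusted p = 4.08e-08), and SAM gave -0.45 (adjusted p = 4.83e-08). A lower log2 fold change was seen in 25.7%, 13.8%, and 20.2% of all genes under DZ, adenine, and SAM. Adenine and SAM were not told apart by a direct contrast (0.02, 95% interval -0.066 to 0.10), which was -0.016 without SAM replicate 3.

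Abca1 (ENSMUSG00000015243, GRCm39 chr4:53030787-53159900, minus strand) encodes the transporter that passes cholesterol and phospholipid to lipid-poor apolipoproteins. It was at 3.93, 4.36, and 4.16 log2 CPM in CTL, at 3.65, 3.54, and 3.62 under DZ, at 3.58, 3.67, and 3.56 under adenine, and at 3.76, 3.76, and 3.82 under SAM. The CTL dishes were spread over a wider range than those of any treatment, with an SD of 0.22 where counting error alone gives 0.050, but the lowest of them was still above all treated dishes. The log2 fold change was -0.55 under DZ (standard error 0.087, adjusted p = 7.32e-05), a level 1.46-fold lower. It was also -0.55 under adenine (adjusted p = 3.79e-05), and DZ and adenine differed by 0.0022 (95% interval -0.18 to 0.19) in the direct contrast. Under SAM it was -0.37 (adjusted p = 0.00123), and this call was lost with plain read totals (-0.25, adjusted p = 0.0165). The share of all genes with a lower log2 fold change than Abca1 was 6.20% under DZ, 11.4% under adenine, and 24.2% under SAM.

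The sequence before the start of Abca1 was set beside those of other genes because LXR and its partner bind direct repeats of AGGTCA with 4 bases between them (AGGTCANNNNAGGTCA). The windows were those of RefSeq, from 250 bases before to 50 after a start, taken from a table of GRCm38.p6 and placed on GRCm39 by an exact match, and both strands were searched. There were 9 windows, of Abca1, Apoe, Mylip, Nr1h2, Nr1h3, and Soat1. None of the 9 windows held AGGTCA itself, which 16.3% of all 32851 windows did. None held the repeat with up to 2 mismatches in its 12 bases outside the spacer, as 3.02% of all windows did. Allowing 3 mismatches, a level added after seeing the data, only the window of Abca1 held a repeat, as did 21.9% of all windows. Its letters, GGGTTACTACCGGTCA, lie on the strand opposite to the gene and begin 67 bases before the start in the reading direction of the gene. In a search also chosen then, the same 6 bases on either side of a 4-base spacer were found in 3 of the 32851 windows, those of Abca1, Srebf1, and Fasn. The letters searched for were taken from the Abca1 window, so the match in that window was fixed in advance. Fasn shares all 16 letters with Abca1, and Srebf1 shares the 12 outer bases and 2 of the 4 in the spacer. All 3 genes are known LXR targets, so the windows are shown whole, in the direction of each gene, with the outer bases of the repeat in capitals. In the Abca1 window an E-box (CACGTG, a site of many helix-loop-helix factors, held by 7.15% of all windows) is in capitals as well, 147 bases before the start, and it does not overlap the repeat.
Abca1, chr4:53159846-53160145, minus strand: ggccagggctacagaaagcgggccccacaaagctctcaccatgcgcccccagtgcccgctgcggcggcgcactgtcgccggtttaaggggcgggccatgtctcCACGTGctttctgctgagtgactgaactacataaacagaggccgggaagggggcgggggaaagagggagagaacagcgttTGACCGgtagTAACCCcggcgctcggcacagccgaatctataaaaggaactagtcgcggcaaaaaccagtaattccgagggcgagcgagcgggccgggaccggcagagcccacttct
Srebf1, chr11:60101248-60101547, minus strand: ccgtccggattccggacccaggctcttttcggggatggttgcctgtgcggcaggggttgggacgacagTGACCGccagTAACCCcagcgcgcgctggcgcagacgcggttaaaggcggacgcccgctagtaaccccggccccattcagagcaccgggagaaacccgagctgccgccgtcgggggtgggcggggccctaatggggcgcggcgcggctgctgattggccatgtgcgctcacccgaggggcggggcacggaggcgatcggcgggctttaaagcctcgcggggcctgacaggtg
Fasn, chr11:120715324-120715623, minus strand: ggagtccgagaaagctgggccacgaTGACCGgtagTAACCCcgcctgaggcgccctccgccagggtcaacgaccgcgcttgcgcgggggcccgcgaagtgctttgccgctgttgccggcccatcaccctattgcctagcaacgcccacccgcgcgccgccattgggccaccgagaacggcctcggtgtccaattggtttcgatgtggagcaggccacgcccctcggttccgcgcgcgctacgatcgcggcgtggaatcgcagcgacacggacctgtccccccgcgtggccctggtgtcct
The repeat begins 182 bases before the start in the Srebf1 window, which belongs to a start inside the gene and is 1 of 3 windows held for it. In the Fasn window it begins 225 bases before the RefSeq start, within the longer span that GENCODE gives the gene. These matches describe letters only, as binding was not measured in these cells.

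Genes with these outer bases went in different directions. Srebf1 encodes SREBP-1, which drives fatty acid synthesis, and the table gives 1 value for the whole gene, not for each of its starts. It was at 6.32, 6.26, and 6.29 log2 CPM in CTL, at 6.18, 6.23, and 6.27 under DZ, at 6.61, 6.54, and 6.49 under adenine, and at 6.76, 6.76, and 6.80 under SAM. All adenine and SAM dishes were above CTL, and the DZ dishes overlapped CTL. Srebf1 rose by 0.26 on the log2 scale with adenine (standard error 0.036, adjusted p = 1.24e-05) and by 0.48 with SAM (adjusted p = 6.85e-09). Fasn, the fatty acid synthase, rose by 0.89 with adenine and by 1.36 with SAM, and neither gene was called under DZ (-0.06 for Srebf1 and -0.08 for Fasn). Over the same libraries Abca1 fell under all 3 treatments.

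Apoe (ENSMUSG00000002985, GRCm39 chr7:19430034-19434947, minus strand) encodes apolipoprotein E, which takes up effluxed cholesterol and carries it in lipoproteins. It was at 2.90, 2.93, and 2.86 log2 CPM in CTL, at 1.33, 1.77, and 1.39 under DZ, at 1.77, 1.56, and 1.34 under adenine, and at 1.88, 1.72, and 2.10 under SAM. The CTL dishes were close together and above every treated dish. No other gene of the group moved as far. Under DZ the log2 fold change was -1.40 (standard error 0.14, adjusted p = 7.58e-07), a level 2.64-fold lower, and 0.151% of all genes had a lower log2 fold change. Under adenine it was -1.34 (adjusted p = 4.62e-07), or 2.53-fold lower, with 0.818% of all genes below it. Under SAM it was -0.996 (adjusted p = 9.56e-06), or 1.99-fold lower, with 5.71% of all genes below it. The treated groups overlapped one another. The direct contrasts put Apoe 0.34 higher under SAM than under adenine (adjusted p = 0.0496) and 0.40 lower under DZ than under SAM (log2 fold change -0.40, adjusted p = 0.0166), neither of them called. The contrast of DZ with SAM was called with plain read totals (-0.50, adjusted p = 0.00458), without DZ replicate 2 (-0.54, adjusted p = 0.00309), and without SAM replicate 2 (-0.49, adjusted p = 0.00965). The SD within the treated groups was 0.19 to 0.24 on the log2 scale, where counting error alone gives 0.10 to 0.12 at the 122 to 217 reads they had.

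**Figure D2:**
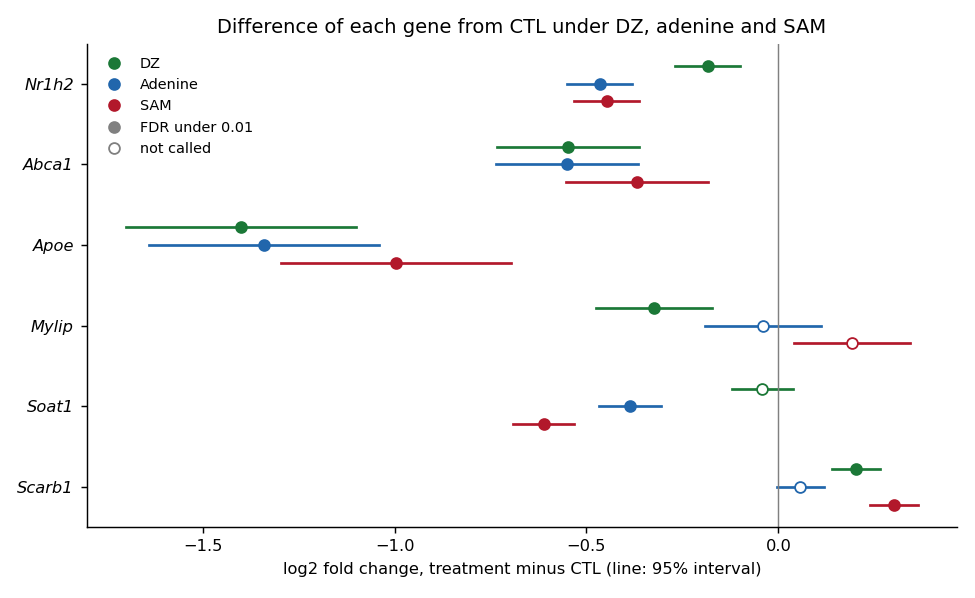
Log2 fold change of each gene against CTL under DZ, adenine, and SAM, with the 95% interval from limma as a line. Filled points are called at an FDR below 0.01, and Apoe lies farthest from 0 in each treatment.

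Mylip (ENSMUSG00000038175, GRCm39 chr13:45543215-45565501, plus strand) encodes the ubiquitin ligase also known as IDOL, which marks lipoprotein receptors such as the VLDL receptor for breakdown. It was at 3.89, 3.81, and 3.83 log2 CPM in CTL, at 3.61, 3.59, and 3.36 under DZ, at 3.80, 3.87, and 3.75 under adenine, and at 4.09, 3.97, and 4.05 under SAM. The DZ dishes were the lowest and the SAM dishes the highest, and adenine overlapped CTL. Mylip fell under DZ, by 0.32 on the log2 scale (standard error 0.071, adjusted p = 0.00114). Its log2 fold change was -0.04 under adenine (95% interval -0.19 to 0.11, adjusted p = 0.64), and 0.02 with plain read totals. Under SAM it was 0.19 (95% interval 0.040 to 0.34, adjusted p = 0.0228), not called, although plain read totals gave 0.31 and a call (adjusted p = 8.63e-04).

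Soat1 (ENSMUSG00000026600, GRCm39 chr1:156252095-156303864, minus strand) encodes the enzyme that esterifies cholesterol for storage in lipid droplets. Its levels were 6.47, 6.51, and 6.38 log2 CPM in CTL, 6.41, 6.39, and 6.43 under DZ, 6.04, 6.09, and 6.07 under adenine, and 5.89, 5.82, and 5.82 under SAM. The DZ dishes fell within the range of CTL, the adenine dishes were below both, and the SAM dishes were below those of adenine. Soat1 fell by 0.39 on the log2 scale under adenine (standard error 0.037, adjusted p = 1.85e-07), and SAM gave a log2 fold change of -0.61 (adjusted p = 5.34e-10). Under DZ it was -0.04 (95% interval -0.12 to 0.038, adjusted p = 0.355). A fall of the size seen under adenine is outside that interval.

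Scarb1 (ENSMUSG00000037936, GRCm39 chr5:125353547-125418176, minus strand) encodes SR-BI, the HDL receptor, which moves cholesterol in both directions between cells and HDL. Its levels were 6.35, 6.40, and 6.33 log2 CPM in CTL, 6.58, 6.55, and 6.55 under DZ, 6.42, 6.41, and 6.42 under adenine, and 6.66, 6.64, and 6.68 under SAM. The 4 groups did not overlap, and the gap between CTL and adenine was the narrowest. Scarb1 rose under DZ, by 0.20 (standard error 0.029, adjusted p = 2.75e-05), and under SAM, by 0.30 (adjusted p = 1.20e-07). Under adenine the log2 fold change was 0.06 (95% interval -0.0041 to 0.12, adjusted p = 0.0877), not called, whereas plain read totals gave 0.12 and a call (adjusted p = 0.00195). Of the 6 genes it was the only one called higher than CTL under any treatment.

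Contrasts between treatments asked where the compounds differed. Between SAM and adenine, 2 of the 6 genes were called, where 42.7% of all genes were (20.8% higher and 22.0% lower under SAM). Soat1 was lower under SAM by 0.22 (log2 fold change -0.22, adjusted p = 1.30e-04) and Scarb1 was higher by 0.24 (adjusted p = 5.16e-06). Mylip was 0.23 higher under SAM (adjusted p = 0.0125), which was called with median centring, plain read totals, or voom on recovered reads. Between DZ and adenine 4 genes were called, against 64.3% of all genes (32.1% higher and 32.2% lower under DZ). Nr1h2, Soat1, and Scarb1 were higher under DZ, by 0.28, 0.34, and 0.14, and Mylip was lower (-0.29, adjusted p = 0.00196), a call lost with quantile normalization (-0.17), without DZ replicate 3 (-0.21), or without adenine replicate 2 (-0.26). Between DZ and SAM 4 genes were called, against 69.0% of all genes (35.0% higher and 34.0% lower under DZ). Nr1h2 and Soat1 were higher under DZ, by 0.26 and 0.57, and Mylip was lower (-0.52). Abca1 had -0.18 (95% interval -0.37 to 0.0054, adjusted p = 0.0717), not called, whereas plain read totals gave -0.28 and a call (adjusted p = 0.0087). Scarb1 was also lower under DZ than under SAM (-0.10, adjusted p = 0.00565), a call lost with median centring (-0.07), in a separate model of both groups (adjusted p = 0.0181), and without DZ replicate 2, DZ replicate 3, SAM replicate 1, or SAM replicate 3 (between -0.10 and -0.09).

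Partners of LXR went both ways. Of 8 listed partners and coregulators 7 were analyzed. Among these, 0 were called higher and 1 lower under DZ, 2 and 3 under adenine, and 2 and 4 under SAM. The median log2 fold changes were 0.0023, 0.0039, and -0.17. The shares of all genes called higher and lower were 22.6% and 23.4% under DZ, 30.6% and 31.0% under adenine, and 33.7% and 35.7% under SAM. Rxra, the gene of retinoid X receptor alpha, had log2 fold changes of 0.12 under DZ (not called), 0.13 under adenine, and 0.17 under SAM. Rxrb, the beta form, had 0.01 (not called), -0.38, and -0.24. Ncoa1, a coactivator of nuclear receptors, fell by 0.51 under adenine and by 0.42 under SAM. Nrip1, another cofactor, fell by 0.25 under DZ, and its values of 0.18 under adenine and -0.14 under SAM were not called.

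Among other genes known as LXR targets, 8 of 13 listed were analyzed. Under DZ 1 was called higher (Arl4c) and 3 lower, with a median log2 fold change of -0.15. Under adenine 6 were higher and 2 lower (median 0.28), and under SAM 6 were higher and 1 lower (median 0.62). Among all genes, 45.9% were called under DZ, 61.6% under adenine, and 69.3% under SAM, in near equal parts higher and lower. Scd1, a desaturase that makes monounsaturated fatty acids, rose by 0.41 with adenine and 1.09 with SAM, and its relative Scd2 by 0.30 and 0.93, while both fell under DZ (-0.23 and -0.25). Lpcat3, which puts polyunsaturated fatty acids into phospholipids, had log2 fold changes of 0.05 under DZ (not called), 0.21 under adenine, and 0.60 under SAM. Arl4c, a small GTPase linked to cholesterol transport, rose by 0.31, 0.75, and 0.65 under DZ, adenine, and SAM. The lower ones under adenine were Smpdl3a, a secreted phosphodiesterase, with -0.75, and Pltp, the phospholipid transfer protein of plasma, with -0.28. Under SAM the lower one was Smpdl3a with -0.69, and Pltp had -0.09 (not called). Smpdl3a had -0.47 under DZ (not called), where the dishes overlapped CTL. Its level was low, with means of 1.36 log2 CPM in CTL, 0.61 under adenine, and 0.67 under SAM. The standard error of its log2 fold changes was 0.20. Pltp was also called lower under DZ (-0.25). Abca1, Apoe, and Smpdl3a were thus lower under adenine and SAM, and Pltp under DZ and adenine. With both adenine and SAM, Srebf1, Lpcat3, Scd1, Scd2, Fasn, and Arl4c were higher.

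**Figure D3:**
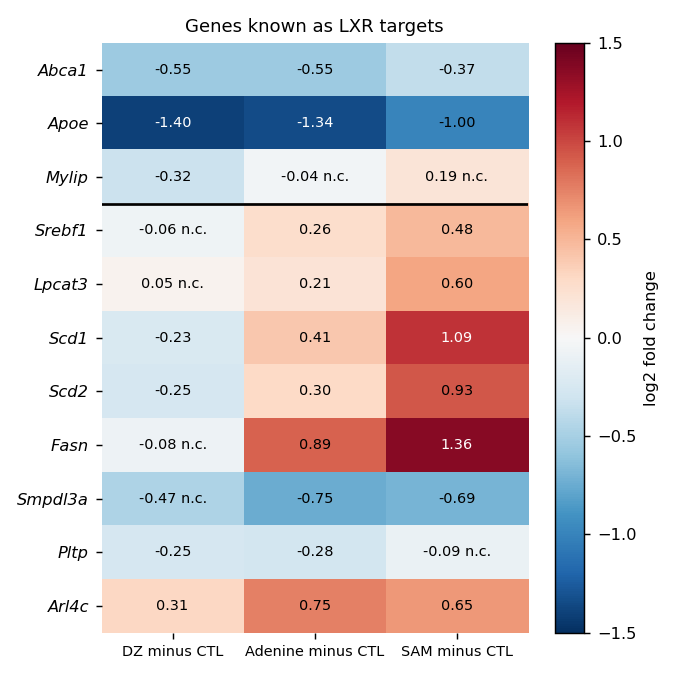
Log2 fold change against CTL of Abca1, Apoe, and Mylip (above the line) and of 8 other genes known as LXR targets (below it), with n.c. for values not called. Under adenine and SAM the upper genes are mostly blue (lower) and 6 of the lower genes red (higher).

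Oxysterols, the ligands of LXR, are made and broken down by a few enzymes, of which 4 of 9 listed were analyzed. Ch25h, which makes 25-hydroxycholesterol, was not analyzed here. Cyp7b1, which hydroxylates oxysterols toward bile acids, rose by 0.16, 0.34, and 0.15 under DZ, adenine, and SAM. Hsd3b7, a later enzyme of bile acid synthesis, fell by 0.42 under adenine, with -0.06 under DZ and 0.15 under SAM not called. Ebp, a sterol isomerase, rose by 0.48 under SAM, with 0.15 under DZ and -0.02 under adenine not called. In the list, 2, 2, and 3 genes were called higher and 0, 1, and 0 lower under DZ, adenine, and SAM, with medians of 0.15, 0.16, and 0.31. The shares of all genes called were 45.9%, 61.6%, and 69.3%.

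Genes of cholesterol uptake, transfer, and storage went both ways, as did genes at large. Of all genes 45.9%, 61.6%, and 69.3% were called under DZ, adenine, and SAM, near evenly higher and lower. Of 16 listed 14 were analyzed, and 5 were called higher and 2 lower under DZ, 5 and 6 under adenine, and 7 and 5 under SAM, with medians of 0.0033, -0.095, and 0.083. Vldlr, the VLDL receptor and a substrate of the ligase encoded by Mylip, had log2 fold changes of 0.01 under DZ (not called), -0.48 under adenine, and -2.77 under SAM. Gramd1b, which carries cholesterol from the plasma membrane to the endoplasmic reticulum, fell by 1.22, 1.79, and 3.15, and Stard4, a soluble sterol carrier, had -0.08 (not called), 1.46, and 2.23. Npc1, which exports cholesterol from lysosomes, had -0.03 (not called), -0.85, and -0.76.

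Of 14 other sterol transporters and lipoprotein components 10 were analyzed, with 4 called higher and 3 lower under DZ, 4 and 3 under adenine, and 5 and 2 under SAM (medians 0.15, 0.14, and 0.35). Beside these counts, 45.9%, 61.6%, and 69.3% of all genes were called. While Apoe fell, the apolipoprotein genes Apob and Clu were higher than CTL in every treatment. Apob, the protein of LDL, rose by 2.23 under DZ, 0.71 under adenine, and 1.64 under SAM, and Clu, also known as apolipoprotein J, by 0.98, 1.38, and 1.89. Among transporters, the multidrug gene Abcb1a fell by 1.10 under adenine and by 1.64 under SAM, and had 0.26 under DZ (not called). Abca3, a phospholipid transporter of the same family as Abca1, fell by 0.79, 0.31, and 0.42.

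All 21 listed genes of sterol synthesis and its control were analyzed, and 10 were called higher and 4 lower under DZ, 20 and 1 under adenine, and 19 and 0 under SAM, with median log2 fold changes of 0.092, 0.95, and 1.58. By comparison, 22.6%, 30.6%, and 33.7% of all genes were called higher, and 23.4%, 31.0%, and 35.7% lower. Srebf2 had log2 fold changes of -0.15 under DZ, 0.50 under adenine, and 0.79 under SAM. High values were those of Idi1 (0.22, 2.33, and 3.45), whose reads could have been shared with its pseudogene Idi1-ps1, followed under SAM by Hsd17b7 (2.77), Pmvk (2.51), and Fdps (2.10). Under DZ, where Abca1 and Apoe had log2 fold changes of -0.55 and -1.40, Srebf2 had -0.15.

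**Figure D4:**
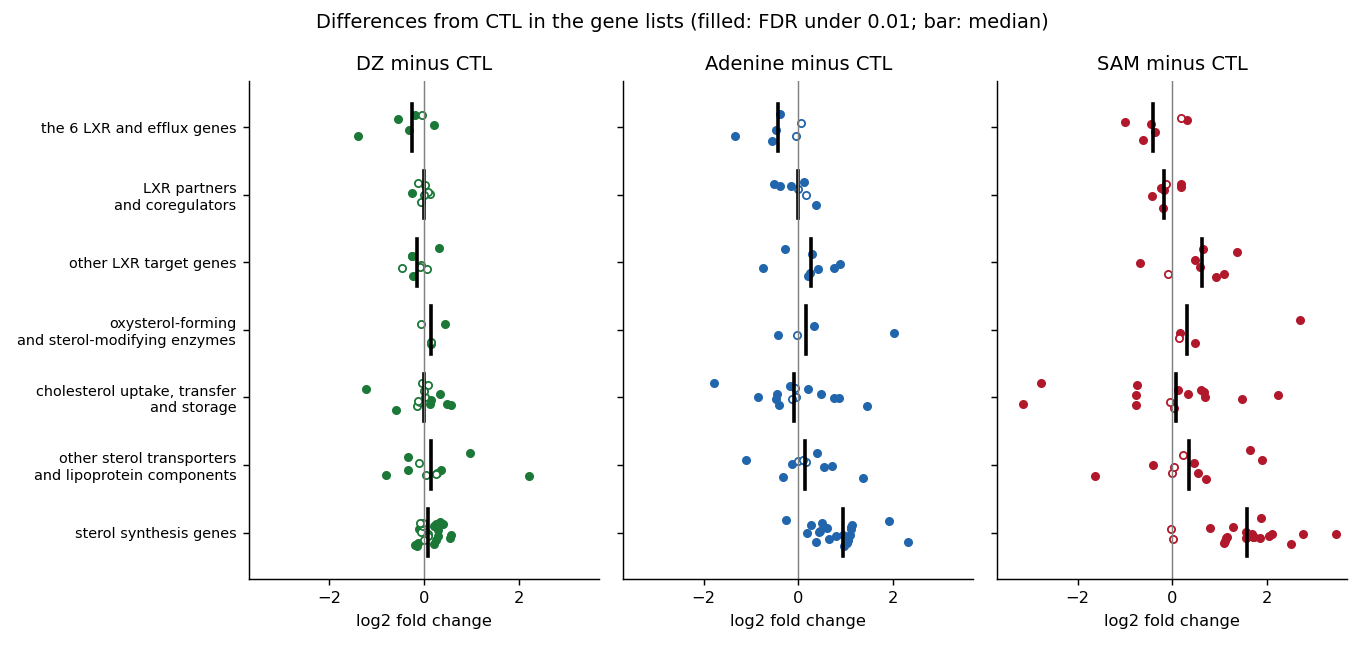
Log2 fold change against CTL of the 6 LXR and efflux genes and of the genes of 6 other lists, 1 point a gene, filled where called, with the median of each list as a bar. The bar of the 6 genes is left of 0 in each panel, and that of the sterol synthesis genes moves from 0.092 under DZ to 0.95 under adenine and 1.58 under SAM.

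The profiles most like those of Abca1 and Apoe were sought among all genes by the root mean square difference of log2 values over the 12 libraries, each gene less its CTL mean. Nearest to Abca1 were Cryz (0.077), Uckl1 (0.099), and Tpt1-ps3 (0.099). Nearest to Apoe were Camk2n1 (0.22), Rps12-ps24 (0.24), and Rps12-ps19 (0.25). Tpt1-ps3, Rps12-ps24, and Rps12-ps19 are pseudogenes, which can share reads with their parent genes. No gene of the table overlaps Abca1, Apoe, Nr1h2, Mylip, Soat1, or Scarb1 in GENCODE vM39.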

How the data were processed

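Polyadenylated RNA of 12 dishes was sequenced in stranded libraries. Per the study's methods and processing notes, the authors trimmed reads with Trimmomatic, aligned them to GRCm39 with HISAT2, and quantified transcripts with StringTie. They dropped genes under 1 CPM in any sample, and the deposited table gives log2 CPM on library sizes normalized by the authors. Removal of a prior count of 2 gave whole reads (100% of values within 0.1 of a whole number), which are estimates from coverage.

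The log2 values were tested with limma 3.58.1 in R 4.3.3 (lmFit, contrasts, trended eBayes), all 4 groups together, with Benjamini-Hochberg adjustment over 12591 genes and an FDR of 0.01. The model was tested on simulated data. Of 12591 identifiers, 12575 were found in GENCODE vM39. The genes named are the 8 listed, Srebf1, Lpcat3, Rxra, Ch25h, Npc1, and Srebf2, the 4 or fewer called genes of each list with the largest fold change against CTL, and the 3 profiles nearest to Abca1 and Apoe. Some genes picked by this rule are not reported here. Smpdl3a and Pltp were named after their values were seen, as were the E-box and the repeat with 3 mismatches. The genes and lists were chosen with earlier results of these data known. The fits were repeated with other scalings (median centring, quantile normalization, plain read totals), with voom on recovered reads, with a pseudocount of 1 CPM, with low genes removed (a mean log2 CPM under 3, or under 1 in any library), with robust or untrended variances, at an FDR of 0.05, in separate models, with a replicate block, and without each library. Python 3.11.15, numpy 2.4.6, pandas 2.3.3, and matplotlib 3.10.9 were used for reads, sequences, and plots.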

Additional observations from a re-analysis of the deposited data

How the results depend on the processing

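The number of the 6 genes called stayed within 1.5 times of its value under the alternatives, except between SAM and adenine. There an FDR of 0.05 gave 4 in place of 2 by adding Apoe and Mylip. For 6 genes this bound is wide. Against CTL the number ranged from 4 to 5 under DZ (main fit 5), 3 to 5 under adenine (4), and 4 to 6 under SAM (5). It ranged from 3 to 4 between DZ and adenine (main fit 4) and from 3 to 6 between DZ and SAM (4). The replicate numbers did not pair the dishes (Pearson r between -0.142 and 0.181 over 18 pairs across genes), and the replicate block left 5, 4, and 5 of the genes called against CTL under DZ, adenine, and SAM, the counts of the fit without it. The filter at a mean log2 CPM of 3 left Apoe out, so 17 and not 18 alternatives gave it a value in each contrast. Among the genes named, signs changed only for differences near 0 that were not called. With median centring the log2 fold change under DZ was -0.0011 for Rxrb and -0.00067 for Vldlr. With plain read totals that under adenine was 0.023 for Mylip and 0.041 for Ebp, and that of DZ minus adenine was -0.034 for Abca1. Quantile normalization gave 0.10 for Apoe in DZ minus adenine. Across fits without 1 library, Vldlr under DZ ranged from -0.00046 to 0.027, Ebp under adenine from -0.092 to 0.018, Abca1 in DZ minus adenine from -0.020 to 0.036, Apoe in the same contrast from -0.20 to 0.046, and Nr1h2 in SAM minus adenine from -0.016 to 0.065. The cause of these changes was not tested. Of the 6 genes Apoe had the fewest reads. Counting error alone gives an SD of 0.12 log2 units at the 137 reads it had on average under DZ, where the SD between dishes was 0.24.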
